A study of Mus musculus with 54 samples.

Results

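Cytosolic ribosomal protein genes were taken as the gene symbols that begin with Rpl or Rps and a digit, together with Rpsa, Rplp0, Rplp1 and Rplp2. Symbols that carry -ps, which name pseudogenes, and the S6 kinase genes (Rps6ka, Rps6kb, Rps6kc and Rps6kl) were left out. This gave 93 of the 33126 symbols in the files, 54 of the large and 39 of the small ribosomal subunit. Of these, 77 (46 large, 31 small) name the core proteins of the ribosome. The other 16 name paralogs, retrogenes and genes with a related symbol: Rpl10l, Rpl22l1, Rpl36al, Rpl37rt, Rpl39l, Rpl3l, Rpl6l, Rpl7l1, Rps12l1, Rps12l2, Rps19bp1, Rps27l, Rps27rt, Rps3a2, Rps3a3 and Rps4l. The 10x files listed 84 or 85 of the symbols, among them 8 of these 16 (Rpl22l1, Rpl36al, Rpl3l, Rpl6l, Rpl7l1, Rps19bp1, Rps27l and Rps27rt), without Rpl3l in female cryopreserved cells. The bulk files listed 91 or 92. The rule rests on symbols alone and uses no measured value, though earlier results of these data were known when it was chosen.

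The data were 54 libraries of adult mouse kidney, 39 from 10x Genomics Chromium droplets (27 of cells, 12 of nuclei) and 15 from bulk RNA-seq, in 18 groups of 3. In the first experiment, kidneys of C57BL/6J males of 1 litter, aged 19 weeks and of the line AFAPIL.1DEL, were dissociated on ice with a protease from Bacillus licheniformis (cold) or at 37 °C (warm), and the suspensions were profiled fresh, after 6 weeks of cryostorage, after 3 months in methanol, and as bulk RNA (rRNA depletion, reads of 150 nt). In the second, Balb/c males aged 18 weeks gave fresh cold-dissociated cells, nuclei washed 3 times at 500g and sorted by fluorescence (3x500g), and bulk RNA of intact kidney (rRNA depletion, 51 nt). In the third, Balb/c females aged 15 weeks, which had been breeders, gave fresh and 2-week cryopreserved cold-dissociated cells, nuclei by 3x500g, by 1 wash at 2000g with sorting (1x2000g) and by a sucrose cushion without sorting (sucrose), and bulk RNA of intact kidney and of the cold suspension (poly(A) selection, 60 nt). Each group holds 3 libraries from kidneys of untreated mice. After thawing, C57BL/6J cells were spun at 400g and Balb/c female cells at 1200g. The first 2 experiments used 10x chemistry version 2 and the third version 3, so strain, sex, age, chemistry and batch cannot be told apart between experiments.

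The cytosolic ribosome is made of a large and a small subunit, each an assembly of ribosomal RNA with many small basic proteins, and every cell that makes protein needs it. The mRNAs of these proteins are short, abundant and long-lived, and most of them reside in the cytoplasm. Many begin with a cytosine and a run of pyrimidines, the terminal oligopyrimidine tract, through which the mTOR pathway sets how much of them is translated.

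The members share a compact gene structure. In GENCODE vM21 (GRCm38) the 77 core genes had a median span of 3289 bp, against 21687 bp in 18191 other protein-coding genes, and a median of 1167 bp of intron against 17360 bp. They had a median of 5 exons against 8 and lay on 19 chromosomes. Of the 77, 59 have at least 1 -ps locus in the annotation (297 loci in all). At their 3′ ends, where 10x reads begin, 69 shared a stretch of 50 bases with another annotated gene within their last 300 bases, and in 46 over 50% of such stretches were shared. How the authors' counting treated reads that fit several genes is not given in the sources used here, so small differences between a member and its copies are uncertain. Also, 5 core genes overlap another gene on the same strand (Rpl13, Rpl13a, Rpl19, Rpl24 and Rps10).

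Start sites were read from RefSeq promoters (GRCm38.p6), which held 57 of the 77 core genes. A C at the annotated transcript start followed by 4 bases that are each C or T was found in 13 of these 57 genes (22.8%), against 3.01% of 27025 genes with a promoter in that table. A longer run, a C followed by 6 such bases and starting within 5 bases of the start, was found in 22 (38.6%) against 7.64%. The motif TATAAA between 40 and 15 bases before the start was found in none of the 57, against 2.41% of the 27025 genes. These searches covered the gene's own strand and are descriptions of letters. The windows below belong to some of the members named in the comparisons that follow, Rps27, Rpl12 and Rps12 after cryostorage, Rpl6 after methanol, and Rpl35 and Rpl15 in nuclei. Each holds 15 bases before the annotated start and 15 from the start on, 5′ to 3′ on the gene's strand, and capitals mark a C followed by at least 4 bases that are C or T, counted from the annotated start where it is such a C and otherwise from the nearest one up to 5 bases before or after it.
Rps27, chr3:90213634-90213663, minus strand: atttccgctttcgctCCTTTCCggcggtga
Rpl12, chr2:32961697-32961726, plus strand: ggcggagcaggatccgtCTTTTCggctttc
Rps12, chr10:23787195-23787224, minus strand: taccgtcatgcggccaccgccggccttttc
Rpl6, chr5:121204486-121204515, plus strand: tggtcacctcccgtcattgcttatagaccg
Rpl35, chr2:39005117-39005146, minus strand: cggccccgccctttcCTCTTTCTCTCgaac
Rpl15, chr14:18270972-18271001, minus strand: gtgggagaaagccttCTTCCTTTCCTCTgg
In Rpl35 and Rpl15 the marked letters, counted from the annotated start, number 11 and 13, and C or T letters also stand directly before them. No run is marked in Rps12 and Rpl6, which says only that these letters do not stand within 5 bases of this annotated start.

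The 10x libraries held 983522 to 35170947 UMIs (unique molecular identifiers, each counting 1 captured molecule) in 782 to 9308 barcodes, with a median of 343 to 3893.5 UMIs per barcode, and the bulk libraries 2326998 to 31093949 reads. Mitochondrial genes took 13.6 to 31.7% of the UMIs of C57BL/6J libraries and 31.3 to 34.9% of those of Balb/c female cells. They are at 0 in the files of Balb/c male cells and of nuclei, so mitochondrial counts were left out of every total below. Between any 2 of the 39 10x libraries, at most 2.05% of the barcodes of the smaller one were shared (median 0.124% over 741 pairs). Cells were counted on exonic reads and nuclei on intronic and exonic reads, so a comparison of nuclei with cells includes that difference in counting.

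The share of counts that fell on the 93 genes was higher in every library of cells than in any library of nuclei. In fresh cold-dissociated C57BL/6J cells it was 10.1, 10.4 and 10.0% in the 3 libraries (10.2% ± 0.174, SD, n = 3). In Balb/c female cells it was close to that, at 10.2, 10.6 and 10.5%, and in Balb/c male cells 8.29, 8.40 and 7.50%. In nuclei it was below 1% in every library. Male 3x500g nuclei had 0.636, 0.551 and 0.587%, a mean 13.6-fold lower than in cells of the same experiment. Female 3x500g nuclei had 0.186, 0.237 and 0.211%, a mean 49.4-fold lower. The shares of nuclei hold no counts of Rpl13 and leave out Gm20388, a symbol that overlaps it and is described below. Bulk libraries had 1.07 to 1.18% in C57BL/6J suspensions, 0.579 to 0.784% in male kidney, which overlapped male nuclei, and 1.20 to 1.31% in the female kidney and suspensions. Divided by exon length, the bulk shares were 2.69% in cold C57BL/6J suspensions, 1.56% in male kidney and 2.87% in intact female kidney (means of 3). The bulk values are shares of reads from whole transcripts and the 10x values shares of molecules tagged at the 3′ end, so these are set side by side and not tested.

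**Figure D1:**
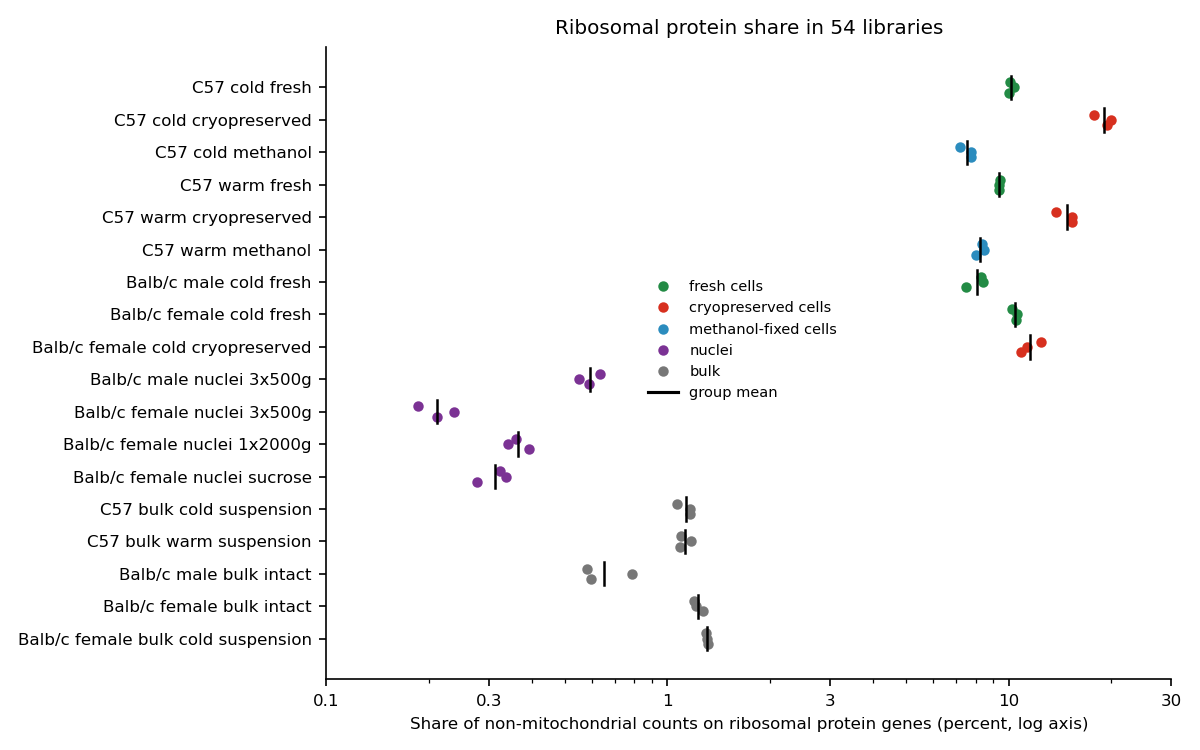
Share of non-mitochondrial counts on ribosomal protein genes (percent, log axis) in the 54 libraries, by group; each dot is 1 library and each bar the mean of 3. Cells lie between 7.21 and 19.9%, bulk libraries between 0.579 and 1.31%, and nuclei between 0.186 and 0.636%, so bulk and nuclei overlap.

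Within the fresh cold-dissociated C57BL/6J cells, the levels of the core members spread widely. Levels are CPM, counts scaled to the same total of non-mitochondrial counts in every library, and since a molecule is counted once by its 3′ end, no division by length was applied. Rpl41, which encodes the shortest ribosomal protein, was the highest at 5115, 5706 and 6316 CPM. After it came Rps29 (mean 3730), Rps27 (3044), Rps19 (2714), a gene mutated in Diamond-Blackfan anaemia, and Rpl37a (2702). Lowest of the core were Rpl12 (mean 317), which sits at the base of the ribosomal stalk, Rpl5 (371), which binds the 5S RNA, and Rps12 (426). The median core gene stood at 1173 CPM, with quartiles at 845 and 1442, and the median coefficient of variation over the 3 libraries was 4.93%. Across the 77 core genes, the rank correlation of mean levels with warm fresh cells was 0.986, with cold cryopreserved cells 0.932, with cold methanol cells 0.946 and with Balb/c male cells 0.896. It was 0.203 with Balb/c female cells. There Rpl23, Rplp1, Rps24 and Rpl41 were among the highest, Rpl29, Rpl15 and Rpl27 were lowest, Rps12 stood at a mean of 1400 CPM and Rps27 at 844. These correlations are across genes that share libraries and are descriptions.

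Warm and cold dissociation, compared to ask what digestion at 37 °C does to the fresh profile, left the members close to each other. The share was 9.42, 9.36 and 9.36% in warm and 10.1, 10.4 and 10.0% in cold cells. The groups did not overlap (exact two-sided permutation test, p = 0.1, the smallest that 3 libraries against 3 can give). For single genes, edgeR (quasi-likelihood, TMM scaling) was run on the sums of each library, and a gene was called where its Benjamini-Hochberg adjusted p was under 0.05. Of 85 members, 4 were called higher and 1 lower in warm cells, against 8.27% and 6.9% of all 12051 genes. Rps2, at the mRNA entry channel of the small subunit, had 1532, 1552 and 1477 CPM in warm and 1381, 1184 and 1105 CPM in cold cells and did not overlap (log2 fold change 0.46, standard error 0.09, adjusted p = 0.0131). Rpl7a (0.39), Rpl10 (0.32), a late assembly protein of the large subunit, and Rps3 (0.27), a neighbour of Rps2, were also called higher, but the CPM of each overlapped between the groups. Rps27, a small subunit protein with a zinc finger, went the other way, with 2402, 2152 and 2292 CPM in warm and 2805, 3195 and 3133 CPM in cold cells (−0.27, standard error 0.08, adjusted p = 0.0428). The median log2 fold change of the members was 0.08 with TMM (all genes −0.02) and −0.07 with library size alone (all genes −0.17). The sign thus changed with a shift of all genes, and the members lay above all genes by 0.10 and 0.11. With library size alone 1 member was called higher and 7 lower, against 4.06% and 13.8% of all genes. By CPM alone, 3 members were higher and 33 lower without overlap of the libraries, against 39.6% of all genes without overlap in either direction. With mitochondrial counts in the total, the shares of the members overlapped (difference 0.0550 percentage points, exact p = 0.7). Without cold replicate 1 there were 13 calls, without cold replicate 2 or 3 there were 0, and without any 1 warm replicate there was 1. Without cold replicate 1, 1225 of 12403 genes were higher and 1203 lower.

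Cryostorage, tested to see whether it keeps the profile of fresh cells, gave the largest differences among the C57BL/6J cells. In cold-dissociated cells the share was 17.8, 19.9 and 19.5% (19.1% ± 1.13) after cryostorage, 1.88-fold the fresh mean. In warm-dissociated cells it was 13.8, 15.4 and 15.3% (14.8% ± 0.879), 1.58-fold the fresh mean. Neither pair of groups overlapped (exact p = 0.1 each). The small subunit share was 2.00-fold the fresh value and the large subunit share 1.79-fold in cold cells, and 1.68-fold and 1.51-fold in warm cells. Of 85 members, 71 rose and 3 fell in cold cells, where 20.7% of 11530 genes rose and 29.7% fell. In warm cells 54 rose and 7 fell, where 25.5% of 10832 genes rose and 34.2% fell. The median log2 fold change was 0.75 in cold cells and 0.30 in warm cells, against −0.16 over all genes in each. In either direction, 50.5% of all genes were called in cold and 59.7% in warm cells. The CPM did not overlap for 78 higher and 2 lower members in cold cells (62.5% of all genes in either direction) and for 77 and 5 in warm cells (69.4%). With the suspension as a block, which pairs aliquots of the same suspension, 67 members rose and 3 fell in cold cells. There 2109 of 11530 genes rose and 2935 fell. In warm cells the block gave 51 and 5, where 2189 of 10832 genes rose and 3153 fell.

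By subunit, 41 of 51 large and 30 of 34 small subunit members rose in cold cells. Rps27 rose from 2805, 3195 and 3133 CPM to 6926, 7949 and 8053 CPM (log2 fold change 1.13, standard error 0.14, adjusted p = 0.000425) and so became the highest member. Rpl12 went from 298, 338 and 315 CPM to 727, 878 and 810 CPM (1.15, standard error 0.13, adjusted p = 0.000277). Rps12, a small subunit protein, rose by 1.13 (standard error 0.16) and Rpl39, which lines the exit tunnel of the large subunit, by 1.09 (0.16). For none of these 4 genes did cryopreserved and fresh libraries overlap. No core gene fell. All 3 members called lower were among the 8 other symbols: Rps27l, a paralog of Rps27 and a p53 target, went from 832, 829 and 845 CPM to 361, 451 and 396 CPM (−1.25, standard error 0.13, adjusted p = 0.000193), Rpl7l1, a paralog of Rpl7 with a role in ribosome assembly, fell by 0.41 on the log2 scale and Rps19bp1, which binds the Rps19 protein, was called lower by TMM (−0.40) with overlapping CPM. With library size alone neither Rpl7l1 nor Rps19bp1 was called (−0.20 each). Rps27rt, an intronless copy of Rps27, rose by 1.00 (standard error 0.29, adjusted p = 0.0213). It shares 88.4% of the 50-base stretches of its 3′ end with other genes, so reads of Rps27 and Rps27rt may not be told apart. Not called were 11 members, among them Rps2, Rpl41, Rpl35, Rpl24, Rpl28, Rpl38, Rpl22l1 (0.26), Rpl36al (−0.21), Rpl6l (0.44) and Rpl3l (−1.63, at 0 in 2 of the cryopreserved libraries).

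In warm-dissociated cells the same paralog stood out. Rps27l fell from 806, 929 and 820 CPM to 429, 376 and 394 CPM (−1.44, standard error 0.10, adjusted p = 2.27e-05). Rps27 rose from 2402, 2152 and 2292 CPM to 5299, 6449 and 6305 CPM (1.05, standard error 0.09, adjusted p = 8.1e-05), again without overlap. Rps27rt rose by 1.28 and Rpl7l1, Rps19bp1 and Rpl36al, a paralog of Rpl36a, fell by 1.21, 1.12 and 0.65 on the log2 scale. Rps2 was among the 3 core genes that fell (by 0.51). The difference between the cryostorage effects in warm and cold cells was tested as an interaction. It was negative for 41 of 85 members and positive for 0, against 6.01% of all genes in either direction. The median of the members was −0.50 and of all genes −0.04, and Rpl10 (−0.92, standard error 0.14, adjusted p = 0.00682), Rpl7l1 (−0.84) and Rpl39 (−0.80) were the most negative. With library size alone 16 members were negative, where 217 of 11821 genes were negative and 510 positive.

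**Figure D2:**
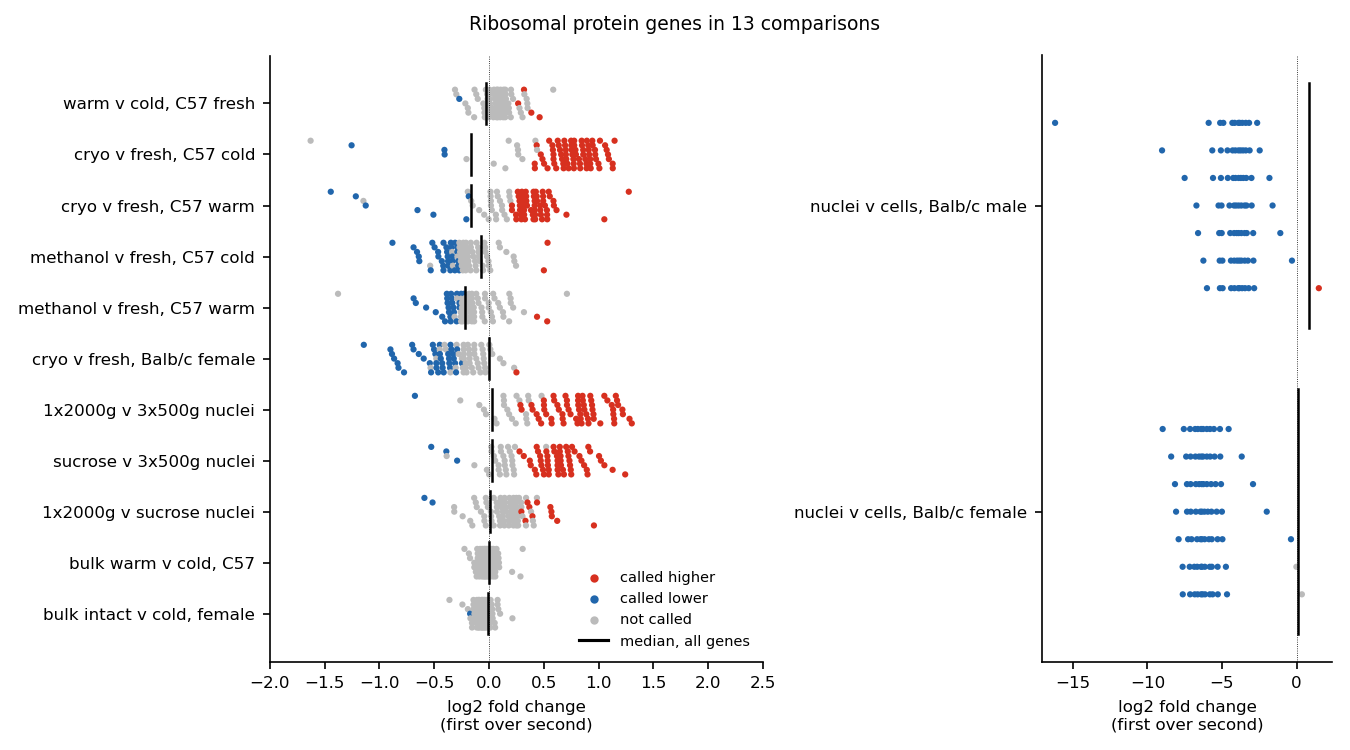
Log2 fold change of each ribosomal protein gene in the 13 comparisons (TMM scaling); dots are genes, red called higher, blue called lower and grey not called at an adjusted p of 0.05, and the black bar is the median of all genes tested. Members lie mostly above the bar after C57BL/6J cryostorage (median 0.75 cold, 0.30 warm) and far below it in nuclei (median −3.91 male, −6.29 female); with library size alone the medians for warm against cold fresh cells and for female cryostorage are −0.07 and 0.12, with all genes at −0.17 and 0.42. The dot at −16.19 is Rpl13, listed at 0 in all male nuclei, so its place depends on the fit and is no measured fold.

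Cell makeup changed with cryostorage at the same time. Barcodes of proximal tubule-like clusters, named from markers, numbered 7266 in cold fresh and 12 in cold cryopreserved cells, and 7764 and 21 in warm cells. Myeloid-like, T-like and B-like barcodes, the classes with the highest shares, numbered 860, 276 and 268 in cold fresh cells. After cryostorage they numbered 966, 320 and 400, in libraries with fewer barcodes in all. In warm cells they numbered 663, 152 and 123 fresh and 670, 313 and 239 cryopreserved. The part of this makeup in the rise and in the interaction was not tested. All 6 proximal tubule markers fell in the library sums (median log2 fold change −6.74 cold, −6.85 warm), as did 4 of 4 hemoglobin genes (−8.42 and −7.37). The values by cell class are given further on for cold-dissociated cells. For warm cryostorage single genes were not tested within classes, so the calls in warm cells and the interaction rest on library sums.

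In Balb/c female cells, cryopreserved for 2 weeks, the effect differed. The share was 12.4, 11.3 and 10.9% against 10.2, 10.6 and 10.5% in fresh cells, 1.10-fold and without overlap (exact p = 0.1), but the median over barcodes overlapped between the groups (difference −0.0747 percentage points). With TMM scaling 1 of 84 members rose and 37 fell (median −0.30, all genes 0.00), where 27.9% of 11934 genes rose and 29.9% fell, whereas with library size alone 20 rose and 7 fell (median 0.12, all genes 0.42), where 55% of all genes rose and 14.7% fell. The scaling shifted all genes alike, and the median of the members lay 0.30 below that of all genes under both. In either direction 57.8% of all genes were called. By CPM, 28 members were higher and 8 lower without overlap, against 75% of all genes in either direction. Rps2 fell under TMM from 1239, 1378 and 1300 CPM to 676, 840 and 877 CPM (−1.14, standard error 0.11, adjusted p = 5.99e-05) and its CPM did not overlap. Rpl26 and Rps27l behaved likewise (−0.90 and −0.88). Rpl41 (−0.87) and Rps26, at the mRNA exit of the small subunit (−0.83), were called lower, but their CPM overlapped, with cryopreserved replicate 1 inside the fresh range. Rpl12 was the member called higher, at 1358, 1388 and 1426 CPM against 898, 850 and 860 CPM (0.25, standard error 0.08, adjusted p = 0.0246). Of the other symbols, Rpl36al (−0.83) and Rpl6l (−0.69) also fell, Rpl7l1 (−0.43) and Rpl22l1 (−0.36) were called lower under TMM but their CPM overlapped, and Rps27rt (−0.41) and Rps19bp1 (−0.21) were not called. Proximal tubule-like barcodes numbered 8772 fresh and 226 cryopreserved, and 6 of 6 proximal tubule markers fell (median −2.72). The interaction with experiment, female minus cold C57BL/6J, was negative for 70 of 84 members and positive for 0, against 19.8% of all genes in either direction (median −1.03, all genes 0.14). With library size alone 66 members were negative and 1 positive, where 351 of 11694 genes were negative and 2761 positive. The most negative members under TMM are given next. Rpl23a (−1.61, standard error 0.16, adjusted p = 8.29e-05) and Rpl26 (−1.49) were the most negative.

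Methanol fixation, the other storage tested, went the opposite way in C57BL/6J cells. In cold-dissociated cells the share was 7.21, 7.76 and 7.76% (7.58% ± 0.317) after 3 months in methanol, 0.746 of the fresh mean. In warm-dissociated cells it was 8.34, 8.46 and 8.02% (8.27% ± 0.227), 0.882 of the fresh mean. Neither pair overlapped (exact p = 0.1 each), although with mitochondrial counts in the total the warm pair did (p = 0.3). Of 85 members, 2 rose and 31 fell in cold cells, where 14.5% of 12004 genes rose and 13.6% fell. In warm cells 2 rose and 24 fell, where 6.97% of 10861 genes rose and 10.3% fell. With the suspension as a block, which pairs aliquots of the same suspension, the counts were 3 and 47 in cold cells, where 18.8% of genes rose and 17% fell, and 5 and 36 in warm cells, where 9.01% rose and 8.42% fell. With library size alone 2 rose and 59 fell in cold cells (median −0.41, all genes −0.25) and 2 rose and 45 fell in warm cells (median −0.24, all genes −0.28). Under that scaling 897 of 12004 genes rose and 2492 fell in cold cells, and 587 of 10861 rose and 1319 fell in warm cells. The median of all members with TMM was −0.23 in cold cells (all genes −0.07) and −0.18 in warm cells (all genes −0.22). The CPM did not overlap for 2 higher and 71 lower members in cold cells (47.9% of all genes in either direction) and for 8 and 58 in warm cells (44.2%).

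Leaving out 1 library moved these counts. In cold cells 12 were called without fresh replicate 2, 18 without fresh replicate 3, 12 without methanol replicate 1 and 14 without methanol replicate 2. Of all genes, 897 of 12076 were higher and 801 lower without fresh replicate 2, and 1120 of 12116 and 974 without fresh replicate 3. These were 1358 of 12401 and 1307 without methanol replicate 1, and 1154 of 12278 and 1355 without methanol replicate 2. In warm cells 9, 11 and 6 were called without fresh replicate 1, 2 and 3, and 6, 43 and 16 without methanol replicate 1, 2 and 3. Over all genes the calls without fresh replicate 1, 2 and 3 were 342, 441 and 313 higher and 354, 376 and 332 lower. Without methanol replicate 1, 2 and 3 they were 410, 651 and 785 higher and 582, 2829 and 1517 lower. Between 10743 and 11505 genes were tested in these warm fits.

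Several members fell after methanol in both suspensions. Rpl6, a large subunit protein, went from 1188, 1233 and 1139 CPM to 680, 680 and 607 CPM in cold cells (−0.69, standard error 0.08, adjusted p = 0.00111). In warm cells it went from 1190, 1152 and 1164 CPM to 720, 731 and 643 CPM (−0.69, standard error 0.09, adjusted p = 0.00349). The libraries did not overlap in either. Rps12, which rose after cryostorage, fell from 413, 414 and 450 CPM to 198, 209 and 209 CPM in cold cells (−0.88, standard error 0.09, adjusted p = 0.00095) and by 0.67 on the log2 scale in warm cells. Rps29 and Rps28 fell by 0.66 and 0.64 in cold cells, and Rplp0, the scaffold of the stalk, by 0.49 in warm cells. Rps27l moved against the majority of members after each kind of storage of C57BL/6J cells, and after methanol it rose from 832, 829 and 845 CPM to 1033, 1017 and 1101 CPM in cold cells (0.50, standard error 0.09, adjusted p = 0.00475) and by 0.53 in warm cells. Rpl7l1 rose in cold cells (0.53) and Rpl15, a large subunit protein, in warm cells (0.44). The other paralogs were not called, at log2 fold changes of −0.54 (Rpl6l) to 0.23 (Rpl22l1 and Rps19bp1) in cold cells and −1.38 (Rpl3l) to 0.71 (Rps27rt) in warm cells. Hemoglobin genes moved with the fixation (2 of 4 higher in cold cells and 4 of 4 in warm cells), as did 3 of 6 proximal tubule markers in cold cells, and their part in the result was not tested. The interaction of methanol with dissociation was called for 0 of 85 members and 0 of 12029 genes.

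Nuclei and cells were compared because nuclear profiling is the alternative to dissociation. In Balb/c males 83 of 84 members were lower in 3x500g nuclei than in fresh cells and 1 was higher, where 27.6% of 14027 genes were lower and 53.6% higher. In Balb/c females 82 of 84 were lower and 0 higher, where 41% of 13762 genes were lower and 43.8% higher. The median log2 fold change was −3.91 in males (all genes 0.84) and −6.29 in females (all genes 0.10). The member counts in each direction were within 1 of these with library size alone and with DESeq2. Rpl35, near the tunnel exit, had 2130, 2104 and 2508 CPM in male cells and 3.30, 5.34 and 6.03 CPM in male nuclei (−9.02, standard error 0.26, adjusted p = 3.99e-07). Rpl21 had 1220, 1186 and 1252 CPM in female cells and 2.86, 3.88 and 3.09 CPM in female nuclei (−8.98, standard error 0.15, adjusted p = 4.14e-09). Both are large subunit proteins, and Rpl21 in males (−7.51) and Rpl35 in females (−7.91) also stood among the 5 largest falls. Rps27 had 2130, 2308 and 2094 CPM in male cells and 26.5, 23.8 and 24.9 CPM in nuclei (−6.61). Rps2 (−8.16), Rps12 (−8.08) and Rpl36a (−8.41) were the other large falls in females and Rpl15 (−6.72) in males. By the counts assigned to each symbol, Rpl41 was the highest core member in male and female 3x500g nuclei. Its mean was 465 CPM in males and 91.7 CPM in females, where Rpl13 was at 0 or not listed.

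The other symbols fell less than most core genes in nuclei. The median log2 fold change was −1.82 over the 7 tested in males and −2.46 over the 8 in females, against −4.06 and −6.36 in the core. Rps27rt, which has no intron, was the exception in males, with 334, 277 and 287 CPM in nuclei and 106, 89.8 and 89.5 CPM in cells (1.49, standard error 0.13, adjusted p = 1.69e-05). It was not called in females (0.35). As said for cryostorage, its reads may not be told apart from those of Rps27, which fell in male nuclei. Rpl3l, known from muscle, was not tested in males and not called in females (−0.02). In males and females, the log2 fold changes were −0.31 and −0.38 for Rpl6l (with overlap of the CPM in males), −1.61 and −2.004 for Rpl7l1, −1.82 and −2.92 for Rps19bp1, −2.65 and −5.01 for Rpl22l1, −3.15 and −5.28 for Rpl36al, and −3.90 and −5.82 for Rps27l.

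Rpl13 and a gene that overlaps it differed between nuclei and cells in opposite directions. Rpl13 (chr8:123102350-123105244, plus strand) lies within a region shared with Gm20388 on the same strand. In male cells Rpl13 had 1748, 2007 and 1280 CPM and Gm20388 had 0, while in male nuclei Rpl13 had 0 and Gm20388 had 974, 934 and 1037 CPM. Against a floor of 3 counts per library Rpl13 was at least 4564-fold lower in nuclei, but that bound holds for the counts assigned to the symbol. In females, cells list Rpl13 (2221, 2208 and 2227 CPM) without Gm20388, and nuclei list Gm20388 (607, 681 and 599 CPM in 3x500g) without Rpl13. In nuclei of both experiments Gm20388 thus stood above Rpl41. Whether its counts there come from Rpl13 was not tested. The shares, folds and ranking of members in nuclei leave Gm20388 out, while those of cells include Rpl13.

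Intron length varied with the difference between nuclei and cells in other genes but hardly among the members. Across 12506 other protein-coding genes, the rank correlation of intron length with the log2 fold change was 0.52 in males, and across 12535 it was 0.67 in females. Across the core genes it was 0.06 in both (77 in males, 76 in females). For the percent of 3′ stretches that a core gene shares with other genes, the correlation was −0.29 in males and −0.20 in females. For the number of -ps loci it was −0.20 and −0.19. The part of read assignment in the falls was not tested. Other protein-coding genes with intron lengths between the 5th and 95th percentile of the core had medians of −0.87 (2043 genes, males) and −1.96 (2228 genes, females). The ranks of core levels in nuclei and in cells correlated at 0.462 in males and 0.631 in females, and those in male and female nuclei at 0.833. The fall was steeper in the female experiment: the interaction, female minus male, was negative for 78 of 84 members and positive for 1, against 54.6% of all genes in either direction (median −2.30, all genes −0.75). Rpl7a (−4.27, standard error 0.24), Rpl10a (−3.58) and Rps7 (−3.18) differed most and Rpl35 (1.00) was the positive one.

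Among the 3 ways to isolate nuclei, 3x500g gave the lowest share. It was 0.360, 0.342 and 0.392% in 1x2000g nuclei and 0.324, 0.336 and 0.276% in sucrose nuclei, 1.72-fold and 1.48-fold the mean of 3x500g nuclei (0.212% ± 0.0257), without overlap (exact p = 0.1 each). In 1x2000g nuclei 62 of 84 members were higher than in 3x500g nuclei and 1 was lower, where 19.5% of 17449 genes were higher and 15.4% lower. In sucrose nuclei 54 were higher and 3 lower, where 23.9% of 17304 genes were higher and 21.4% lower. The median log2 fold changes were 0.69 and 0.51, against 0.03 over all genes in each. The CPM did not overlap for 62 higher and 1 lower member in 1x2000g (48.1% of all genes in either direction) and for 51 and 4 in sucrose nuclei (55.8%). Rpl7 had 65.0, 62.5 and 73.9 CPM in 1x2000g, 61.96, 67.2 and 50.8 CPM in sucrose and 27.4, 28.4 and 26.3 CPM in 3x500g nuclei (1.28 and 1.13, adjusted p = 0.000156 and 0.000381). Rplp1, an acidic stalk protein, had 104, 89.2 and 133 CPM in 1x2000g against 43.3, 42.4 and 45.3 CPM in 3x500g nuclei (1.30, standard error 0.15, adjusted p = 0.00107). Rps3 (1.22 and 1.05) and Rpl18 (1.22 and 1.00) were among the 5 largest in each, with Rpsa, the laminin receptor protein (1.18), in 1x2000g and Rpl6 (1.24) in sucrose nuclei. Against the majority, Rpl27 was lower in 1x2000g nuclei (−0.68) and Rplp2 (−0.53), Rps12 (−0.39) and Rpl10 (−0.29) in sucrose nuclei. All these values share the 3x500g libraries. Hemoglobin genes, markers of red cells, were also higher in each, 4 of 4 (median 2.65 and 1.84), and their part in the result was not tested. The makeup also moved: endothelial-like nuclei, the class with the highest share, numbered 2233 in 3x500g, 3837 in 1x2000g and 3386 in sucrose nuclei, fibroblast-like nuclei 566, 932 and 1053, and myeloid-like nuclei 153, 278 and 315. Within classes the mean share was higher too, at 0.604% in 1x2000g and 0.521% in sucrose against 0.307% in 3x500g endothelial-like nuclei and at 0.338 and 0.309 against 0.220% in proximal tubule-like nuclei. These are not the same clusters throughout: the largest endothelial-like cluster was 7 in 3x500g (51.3% of the class) and 8 in 1x2000g (37.3%) and sucrose nuclei (39.0%), and the largest proximal tubule-like cluster was 0 in 3x500g and 1x2000g and 2 in sucrose nuclei.

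Set against each other, 1x2000g nuclei had 1.17-fold the share of sucrose nuclei, with 11 members higher and 2 lower, where 5.21% of 17500 genes were higher and 7.87% lower. Rpl39 had 22.1, 16.1 and 24.7 CPM in 1x2000g and 11.3, 11.2 and 9.14 CPM in sucrose nuclei (0.96, standard error 0.17, adjusted p = 0.0135). Rpl6 had 24.9, 26.4 and 29.8 against 39.4, 41.4 and 38.3 CPM (−0.59, adjusted p = 0.00396). Neither gene overlapped between the protocols. Rps27l (0.62), Rps28 (0.57) and Rplp2 (0.57) were also higher and Rpl35 lower (−0.51). The calls fell to 4, 6 and 4 without sucrose replicate 1, 2 and 3, and to 3 and 4 without 1x2000g replicate 1 and 3. Of all genes, 379, 284 and 349 were higher and 724, 644 and 766 lower without sucrose replicate 1, 2 and 3. Without 1x2000g replicate 1 and 3, 406 and 331 were higher and 861 and 823 lower.

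In a bulk sample, fewer cells of a type and less RNA per cell cannot be told apart. The share in C57BL/6J suspensions was 1.07, 1.16 and 1.16% cold and 1.10, 1.18 and 1.09% warm (exact p = 1), and these overlapped. None of 85 members tested was called (edgeR), where 8.73% of 14081 genes were (5.68% higher and 3.05% lower in warm). Rpl37a was the member with an edgeR p under 0.05 before adjustment (adjusted p = 0.201), and DESeq2 called 0. By CPM, 1 member was higher and 3 were lower in warm suspensions without overlap, against 27.2% of all genes in either direction. In the female kidney the share was 1.20, 1.21 and 1.27% in intact tissue and 1.30, 1.31 and 1.31% in the cold suspension (exact p = 0.1, without overlap). Of 89 members tested, 0 were higher and 1 lower in intact tissue, where 11.6% of 16516 genes were higher and 8.23% lower. That member was Rps28, with 51.3, 53.8 and 58.2 CPM in intact tissue and 63.6, 62.6 and 62.7 CPM in suspension (−0.17, standard error 0.05, adjusted p = 0.0471). By CPM, 0 members were higher and 42 lower in intact tissue without overlap, against 38.6% of all genes in either direction. The call of Rps28 is not a firm one: at an unadjusted p under 0.05 there were 12 members, DESeq2 called 0, library size alone 9, and the count was 0 without cold replicate 1, 2 or 3 or intact replicate 2, 2 without intact replicate 3, and 1 in the other direction without intact replicate 1. The 9 under library size alone were lower in intact tissue, where 1761 of 16516 genes were lower and 1666 higher. Of the other symbols, the 9 tested in C57BL/6J and 12 in female bulk were not called, with log2 fold changes of −0.18 (Rps4l) to 0.31 (Rpl37rt) and −0.36 (Rpl3l) to 0.10 (Rps19bp1). Rps12l1, Rps12l2 and Rpl39l had too few reads to be tested where listed.

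Barcodes were clustered within each experiment and preparation with the members kept out, and clusters were named from markers, so that a name such as T-like stands for cells with those markers. In fresh cold-dissociated cells of the 3 experiments (9 libraries), lymphoid and myeloid classes carried the highest shares. B-like cells had a mean share of 25.1% (6 libraries), T-like cells 23.4% and myeloid-like cells 17.8%. Thin limb-like (12.8%) and endothelial-like cells (10.8%) followed. The other classes of tubule and glomerulus lay lower, at 8.85% ± 1.43 in proximal tubule-like cells, 8.65% in principal-like, 8.64% in thick ascending limb-like, 8.50% in mesangial and mural-like, 8.46% in connecting tubule-like (6 libraries), 7.91% in intercalated-like, 7.51% in podocyte-like and 6.51% in distal convoluted tubule-like cells. An exact sign-flip test against proximal tubule-like cells of the same library, two-sided and adjusted over 12 classes, gave p = 0.00781 for T-like, myeloid-like, endothelial-like and thin limb-like cells (higher in 9 of 9 libraries) and for distal convoluted tubule-like and podocyte-like cells (lower in 9 of 9). For B-like cells (higher in 6 of 6) and connecting tubule-like cells (lower in 6 of 6) it was 0.0417, and for intercalated-like cells (lower in 8 of 9) 0.0134. NK-like cells reached 10 barcodes in 2 male libraries and were not compared. Mesangial and mural-like (0.117), thick ascending limb-like (0.388) and principal-like cells (0.691) did not pass. Within experiments the difference for principal-like cells changed sign, from −2.01 percentage points in females to 1.60 in males.

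**Figure D3:**
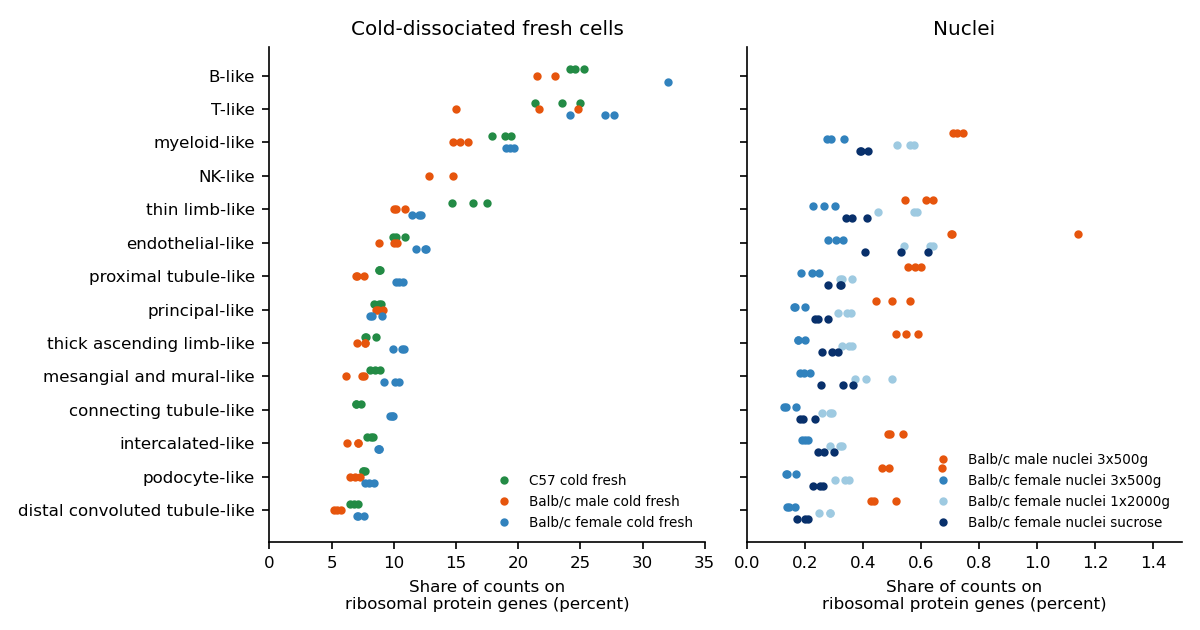
Share of counts on ribosomal protein genes by cell class in fresh cold-dissociated cells (left) and nuclei (right), percent, 1 dot per library; the axes differ in scale. In cells B-like, T-like and myeloid-like classes stand apart (means 25.1, 23.4 and 17.8%), while in nuclei the highest class is under 2.7-fold the lowest.

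From the lowest to the highest class the share differed 3.63-fold, 4.10-fold and 4.40-fold in the C57BL/6J, male and female cells, and 1.89-fold and 2.13-fold in male and female 3x500g nuclei. The highest class in female cells, B-like at 32.0%, rests on few cells, with 13 barcodes over the fresh libraries. Over the 6 classes that were tested within both preparations, which leave out the lowest class in each and the highest in male and female cells (B-like) and male nuclei (fibroblast-like), the range was 2.25-fold in male cells and 1.69-fold in male nuclei, and 2.29-fold in female cells and 1.72-fold in female nuclei. Among these 6, myeloid-like cells led in cells and endothelial-like nuclei in nuclei. Cells and nuclei were clustered apart, so their clusters are different ones by construction. By class the share was 11.4-fold (endothelial-like) to 21.1-fold (myeloid-like) lower in male nuclei than in male cells and 40.1-fold to 64.4-fold lower in the same classes of females. Tested within classes, 79 to 83 members were lower in male nuclei and 81 or 82 in female nuclei, of 80 to 84, where 24.6 to 48% of genes were lower in male and 35.4 to 42.3% in female classes. Rps27rt was higher in 5 of 6 male classes and 2 of 6 female classes.

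The same classes were compared across storage, at 3 libraries a group and p no smaller than 0.1. After cryostorage of cold C57BL/6J cells, each of the 6 classes compared had a higher share than fresh: 32.1 against 23.3% in T-like, 22.8 against 18.8% in myeloid-like, 14.5 against 10.4% in endothelial-like, 11.5 against 8.71% in principal-like, 10.3 against 8.11% in intercalated-like and 10.9 (2 libraries) against 8.01% in thick ascending limb-like cells, each without overlap (exact p = 0.1). These ratios of 1.22 to 1.40 are below the 1.88 of the whole libraries. Proximal tubule-like cells had under 10 barcodes in each cryopreserved library and could not be compared. The largest cluster of a class differed between cryopreserved and fresh cells in intercalated-like (33, with 69.2% of them, and 26, with 48.0%) and thick ascending limb-like cells (15, with 60.3%, and 23, with 53.5%). Within classes 38 of 84 members rose in endothelial-like cells, where 3.52% of genes did, 32 of 83 in T-like (6.06%), 27 of 84 in myeloid-like (6.28%), 23 of 83 in principal-like (2.09%), 18 of 83 in intercalated-like (3.21%) and 0 of 82 in thick ascending limb-like cells (0.165%). One fell, Rps27l in T-like cells. Rplp1 and Rplp2 of the stalk, Rpl39, Rps10, Rps12, Rps13 and Rps15 rose in 5 of the 6 classes. These calls, 139 over the 6 classes, became 88, 30 and 71 without fresh replicate 1, 2 and 3. They became 248, 21 and 47 without cryopreserved replicate 1, 2 and 3. Calls over all genes with a library left out are not reported here for classes, in this and the next comparisons. Such changes may therefore not be particular to the members.

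**Figure D4:**
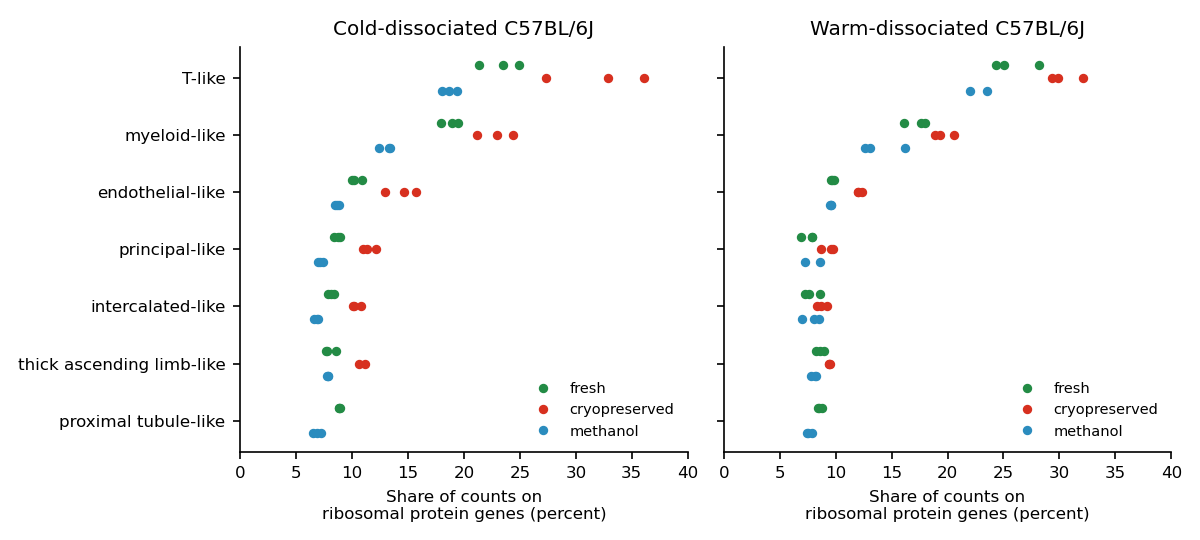
Share of counts on ribosomal protein genes by cell class in C57BL/6J cells profiled fresh, cryopreserved or methanol-fixed, after cold (left) and warm (right) dissociation; 1 dot per library, percent. In cold cells, cryopreserved libraries lie above fresh ones in the 6 classes where both are drawn (T-like 32.1 against 23.3%), and methanol libraries lie below fresh ones (myeloid-like 13.04 against 18.8%) except in thick ascending limb-like cells, where they overlap.

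In cold cells the class shares after methanol lay on the other side of the fresh ones. They were 6.84 against 8.88% in proximal tubule-like, 7.14 against 8.71% in principal-like, 6.79 against 8.11% in intercalated-like, 8.64 against 10.4% in endothelial-like, 13.04 against 18.8% in myeloid-like and 18.7 against 23.3% in T-like cells (exact p = 0.1 each, without overlap), and 7.83 against 8.01% with overlap in thick ascending limb-like cells (p = 0.9). The largest clusters differed in proximal tubule-like (1 and 3), thick ascending limb-like (15 and 23), principal-like (34 and 35) and myeloid-like cells (19 and 9). Within classes 68 of 84 members fell in myeloid-like cells, where 13.5% of genes did, 38 of 85 in proximal tubule-like (11.6%), 35 of 82 in T-like (8.56%), 30 of 83 in principal-like (10.2%), 11 of 82 in intercalated-like (7.11%), 8 of 84 in endothelial-like (14.3%) and 6 of 83 in thick ascending limb-like cells (12%). Rpl6 and Rps29 were among the members that fell in each of the 7 classes. Of the calls, 5 were rises, of Rps27l in 3 classes and Rpl7l1 in 2. The 201 calls over the classes were 120 without fresh replicate 2 and 101 without methanol replicate 2. In warm cells the members fell in proximal tubule-like (23 of 85, 6.63% of genes) and myeloid-like cells (17 of 83, 4.93%), with 0 to 4 in the other classes (0.746 to 6.47%), and Rpl15 rose in 2 classes and Rps27l in 1. The 53 calls became 19, 17 and 32 without fresh replicate 1, fresh replicate 3 and methanol replicate 3. The largest cluster of proximal tubule-like cells in warm suspensions was 0 after methanol (14.1% of them) and 6 in fresh cells.

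In Balb/c females, cryostorage went with a lower share in proximal tubule-like cells, at 8.37 against 10.5% (exact p = 0.1, without overlap), where 62 of 84 members fell against 8.32% of genes. The largest cluster of these cells was 1 after cryostorage (40.3% of them) and 0 in fresh cells (12.8%), and proximal tubule-like barcodes were few after thawing (226 in 3 libraries). The largest cluster also differed in principal-like (17 and 27) and intercalated-like cells (19 and 30). In thick ascending limb-like cells the shares overlapped (9.44 and 10.4%, exact p = 0.2) and 6 members fell, where 2.42% of genes did. In the principal-like, intercalated-like, endothelial-like, myeloid-like and T-like classes the shares overlapped (exact p from 0.3 to 1) and 0 to 5 members were called, where 0.159 to 4.28% of genes per class were higher and 0 to 6.57% lower. These 77 calls became 48, 45 and 50 without fresh replicate 1, 2 and 3 and 138 without cryopreserved replicate 1. Between warm and cold fresh cells 3 calls were made over 7 classes, all higher in warm, where 0.771 to 4.2% of genes per class were higher. The largest clusters differed between cold and warm in proximal tubule-like (3 and 6), thick ascending limb-like (23 and 15), principal-like (35 and 34) and myeloid-like cells (9 and 19). There were 24 calls without cold replicate 1, 0 without cold replicate 2 or 3 or warm replicate 1, and 1 without warm replicate 3.

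Other genes of protein synthesis were followed beside the members. Proteins of the mitochondrial ribosome, which are encoded in the nucleus, went opposite to the cytosolic ones in C57BL/6J storage. After cryostorage 0 rose and 65 fell of 76 in cold cells (median −0.88), where 20.7% of all genes rose and 29.7% fell, and 0 and 72 of 76 in warm cells (−1.25), where 25.5% rose and 34.2% fell. After methanol 61 rose and 0 fell of 77 in cold cells (0.52), where 14.5% of all genes rose, and 35 and 0 in warm cells (0.36), where 6.97% rose. Mrpl12 and Mrpl50 fell by 1.98 and 1.96 on the log2 scale in cold cryopreserved cells. Within classes of these cells 0 were called higher and 7 lower over the 6 classes, where 0.33 to 6.18% of genes per class were lower. In female cells 73 of 76 fell after cryostorage (−0.76), where 29.9% of all genes fell. Translation partners, a list of 20 initiation and elongation factors and other mRNAs with pyrimidine starts, moved with the members in cold cryopreserved cells (16 rose and 1 fell, median 0.45, all genes −0.16), among them Pabpc1, the poly(A)-binding protein (1.16), and Fau, whose product carries a small subunit protein (1.04). In warm cryopreserved cells 6 of the 20 rose and 9 fell, against 25.5% and 34.2% of all genes. Of 28 ribosome biogenesis genes 5 rose and 4 fell in cold and 6 and 7 in warm cryopreserved cells, near or below the shares of all genes.

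All 20 translation partners were lower in nuclei than in cells in each experiment (median −3.07 in males and −5.07 in females, Fau −6.67 and −8.56). Mitochondrial ribosomal proteins were lower for 71 of 76 in males (−2.20) and 74 of 75 in females (−3.27). Ribosome biogenesis genes were lower for 13 of 28 and 22 of 28 and higher for 5 and 4 (−0.54 and −1.37). Of all genes, 27.6% were lower in males and 41% in females. Each median lies above that of the cytosolic members (−3.91 and −6.29) and below that of all genes (0.84 and 0.10). The lists were not tested against each other.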

How the data were processed

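Gene counts were taken as deposited. For 10x libraries the authors made them with Cell Ranger 2.1.1 on mm10, from exonic reads for cells and from intronic and exonic reads for nuclei, called barcodes with EmptyDrops and kept barcodes by genes detected and mitochondrial share. For bulk, the authors trimmed with Trim Galore, removed rRNA reads, aligned with STAR 2.6.1a and counted with featureCounts. Per library, 10x counts were summed over barcodes and mitochondrial genes removed. Genes passing filterByExpr were tested with edgeR 4.0.16 (quasi-likelihood, TMM, Benjamini-Hochberg, R 4.3.3), each comparison fitted on its own 6 libraries and interactions on 12. For summed shares, an exact permutation test over libraries (two-sided) was used. Within classes, sums of at least 10 barcodes per library in at least 2 libraries per group were tested likewise. Barcodes were clustered with Leiden (leidenalg 0.10.2). No doublets were removed beyond the authors' filters. Named genes were the 5 called members with the largest change, up to 5 called against the majority, the 5 highest and 3 lowest core members in cold fresh C57BL/6J cells and all other symbols, and of other lists the called genes with the largest change. Single values of a few members that this rule names are not reported here. Members and lists were chosen with earlier results of these data known. The labels name separate kidneys as replicates, so p-values measure the spread between kidneys. The fresh, cryopreserved and methanol aliquots of a C57BL/6J suspension are paired by its name in the labels. The authors describe the Balb/c female fresh and cryopreserved samples as aliquots as well. Their labels share no suspension name, so the pairs could not be matched and no block was fitted for them. Apart from the replicate block, the tests treat such aliquots as separate samples. Deviations from the group means correlated at 0.24, 0.29 and 0.40 between fresh and methanol aliquots in cold cells and at 0.26, 0.40 and 0.22 in warm cells. Between fresh and cryopreserved aliquots they correlated at 0.13, 0.02 and 0.14 in cold cells and at 0.01, −0.08 and −0.03 in warm cells. Alternatives were RLE size factors, library size alone, DESeq2 1.42.0, no filter, a fold threshold, mitochondrial counts kept, a replicate block and leaving out each library. The scripts were tested on simulated data. In cold cryopreserved against fresh cells, 8.96% of genes changed 1.5-fold, 43.3% of those changed 2-fold and 77.3% of those changed 4-fold were recovered. The changed genes were drawn at random from all genes passing the filter, so these rates are not specific to the members.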

Additional observations from a re-analysis of the deposited data

Results flagged for a closer look

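The effect of cryostorage on ribosomal protein genes differed between warm and cold dissociation of C57BL/6J cells for 41 of 85 members (edgeR interaction), all lower in the warm contrast, with a median difference of −0.50 on the log2 scale. Of 11821 genes, 244 were higher and 466 lower. With library size alone 16 members were lower, where 510 genes were higher and 217 lower. The cryostorage effect differed between Balb/c female and cold C57BL/6J cells for 70 of 84 members, all lower in the female contrast. There 1593 of 11694 genes were higher and 718 lower. With library size alone 66 members were lower and 1 higher, where 2761 genes were higher and 351 lower. The difference between nuclei and cells differed between Balb/c females and males for 79 of 84 members, 78 of them lower in females. Most genes moved in that interaction too, with 6329 of 13430 lower and 999 higher (median −0.75, members −2.30). These last 2 interactions compare experiments that also differ in sex, age and chemistry, and the females had been breeders. In the cryostorage one, strain, storage time and spin differ too. These cannot be told apart.

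Symbols with -ps, left out of the members, took 0.0380% of the counts of 1x2000g nuclei, against 0.0212% in Balb/c female cells. They took 0.0184% in 3x500g and 0.0327% in sucrose nuclei, and 0.0491% in both male cells and male nuclei. Of the counts on members and -ps symbols together, -ps symbols were 7.67% in male nuclei and 0.608% in male cells. In females they were 8.02% in 3x500g nuclei and 0.202% in fresh cells.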

How the results depend on the processing

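RLE size factors changed no count of calls by over 1.5 times. With library size alone, 8 members were called between warm and cold fresh cells (1 higher, 7 lower, with the median of all genes at −0.17), 61 after methanol in cold and 47 in warm cells, 27 after female cryostorage (20 higher, with all genes at 0.42), 9 in female bulk, and 16 in the interaction of cryostorage with dissociation. Between warm and cold fresh cells and after female cryostorage the split changed sides with a shift of all genes. Under this scaling 489 of 12051 genes were higher and 1659 lower in warm against cold cells. After methanol 897 of 12004 were higher and 2492 lower in cold cells, and 587 of 10861 and 1319 in warm cells. After female cryostorage 6559 of 11934 were higher and 1757 lower. In female bulk 1666 of 16516 were higher and 1761 lower, and in the interaction 510 of 11821 and 217. DESeq2 called 9 in warm against cold cells, where 871 of 12051 genes were higher and 575 lower. It called 52 after methanol in warm cells, where 769 of 10861 genes were higher and 1144 lower. In female bulk it called 0, where 1863 of 16516 genes were higher and 1257 lower. Without the filter female bulk gave 0, where 2012 of 29036 genes were higher and 1301 lower, and classes of warm against cold cells gave 6. A log2 fold change of at least 1 left 0 in warm against cold cells, 10 and 5 after cryostorage in cold and warm cells (in warm, 2 higher and 3 lower, reversed), 0 after methanol in either, 1 after female cryostorage, 15 and 5 in 1x2000g and sucrose against 3x500g nuclei, 0 between these and 0 in female bulk. At that threshold 733 of 17449 genes were higher and 25 lower in 1x2000g, and 688 of 17304 and 145 in sucrose against 3x500g nuclei. Between 1x2000g and sucrose nuclei these were 95 of 17500 and 46, and in female bulk 580 of 16516 and 302. With mitochondrial genes kept, warm against cold cells gave 3 calls, where 948 of 12061 genes were higher and 853 lower. The share difference with them in the total was 0.0550 percentage points, reversed. The female cryostorage share was reversed as a median over barcodes (−0.0747). The replicate block pairs aliquots of the same suspension in the storage comparisons. Between warm and cold cells, which are different suspensions, it pairs libraries by number only. It gave 2 calls in warm against cold cells, where 878 of 12051 genes were higher and 758 lower. It gave 50 and 41 after methanol in cold and warm cells, with the shares of all genes given above. It moved no other count by over 1.5 times. Cold and warm fresh cells, and fresh and cryopreserved warm cells, did not deviate together by number in every pair.

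Leaving out 1 library gave 0 to 13 calls in warm against cold cells, 12 to 38 and 6 to 43 after methanol in cold and warm cells, 3 to 12 between 1x2000g and sucrose nuclei and 0 to 2 in female bulk, where the 1 call without intact replicate 1 was reversed. Calls over all genes also moved in the methanol fits and are given above. Within classes it gave 0 to 24 (warm against cold), 21 to 248 (cold cryostorage), 101 to 193 and 17 to 71 (methanol, cold and warm) and 45 to 138 (female cryostorage). The calls over all genes in these class fits are not reported here. The share difference of C57BL/6J bulk ran from −0.0417 to 0.00635 and was reversed in 4 of these (without cold replicate 2 or 3 or warm replicate 1 or 3). Other shares kept their direction. The causes of these changes were not tested. Of named genes, 24 of 350 values under other settings and 75 of 420 with a library left out were no longer called, and none reversed. The 3 libraries per group and, after thawing, few proximal tubule-like barcodes limit the precision; at these depths genes changed 1.5-fold were recovered in simulation less often than genes changed 2-fold or more.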
